A study of Mus musculus with 4 samples.

Results

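C3H10T1/2 is a mouse mesenchymal stem cell line with the potential to form fat, muscle, cartilage and bone cells. The comparison described here is between 2 lines of it, clone 1 and clone 5, which the labels give the same genotype: a double knockout (DKO) of Dnmt3a and Dnmt3b. These 2 libraries were chosen by genotype from 4, and the other libraries, 1 of unedited cells (WT) and 1 of cells with a CRISPR edit at the splice acceptor of Prdx1 intron 5 (PRDX1MT), are given beside them. The series was designed around the silencing of Mmachc, the neighbour of Prdx1. Each clone is 1 library of total RNA depleted of ribosomal RNA. All 4 lines have the same culture protocol in the labels, and no source used here gives passage number, cell density or time of harvest. Whether clones 1 and 5 carry an edit of Prdx1 too is not stated.

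Dnmt3a and Dnmt3b place methyl groups on unmethylated DNA, and Dnmt1 with Uhrf1 copies existing methylation after replication. A line grown from a single edited cell carries that cell's own expression state as well as the edit. Lines of the same genotype can therefore differ in how fast they divide, in how they respond to serum and in which lineage genes they keep on. With 1 library per clone there is no replicate check, so the text gives sizes with intervals for counting error and no p-value.

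The deposited counts summed to 34901511 in clone 1 and 27789693 in clone 5, against 37685798 in WT and 27570136 in PRDX1MT. Levels are in CPM, a count relative to its library's size, with that size adjusted by TMM, a method that takes the scale from the bulk of the genes. A gene was examined if both clones together held at least 100 reads, which 12317 genes did. It passed the size rule if the ratio between the clones was at least 2-fold and its 95% exact interval excluded equality. The most abundant row, Gm26917, is annotated as a long noncoding RNA and was grouped here with ribosomal and other structural RNA rows. It took 5.36% of the counts in clone 1 and 12.2% in clone 5, and mitochondrially encoded genes took 2.05% and 0.872%.

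The targeted genes were read first. Dnmt3a stood at 43.4 CPM in WT, 79.3 in PRDX1MT, 31.8 in clone 1 and 26.2 in clone 5. Dnmt3b stood at 3.26, 3.67, 2.87 and 2.06 CPM in the same order. Both transcripts were thus present in both clones, at log2 ratios of clone 5 over clone 1 of -0.28 (95% interval -0.42 to -0.14) and -0.47 (-0.98 to 0.00), neither past the size rule. Gene counts do not show the edit itself, since a knockout by small insertions or deletions can leave the transcript in place. Prdx1, which encodes a peroxiredoxin, stood at 397 CPM in WT and in clone 1, at 335 in clone 5 and at 30.6 in PRDX1MT, so both DKO clones were near the WT level. Mmachc, which processes cobalamin, stood at 10.98 CPM in WT, 16.5 in PRDX1MT, 6.11 in clone 1 and 13.7 in clone 5. Its 2.24-fold difference between the clones (interval 1.88 to 2.66) passed the size rule.

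Across all genes examined, 933 (7.57%) were higher in clone 5 and 1329 (10.8%) were lower, which is 18.4% in either direction. The same rule called 15.9% of genes for clone 1 over WT, 14.3% for clone 5 over WT, 15.2% for clone 1 over PRDX1MT, 14.1% for clone 5 over PRDX1MT and 14.9% for PRDX1MT over WT. These comparisons share libraries and examine slightly different genes, so the shares are set side by side only as a description. The median log2 ratio of clone 5 over clone 1 was -0.02, and the median absolute log2 ratio was 0.43. Differences of at least 4-fold were more often towards clone 1, with 404 genes lower in clone 5 and 122 higher. At 16-fold or more there were 53 lower and 10 higher. Of the 933 genes higher in clone 5, the WT level lay between the clones for 657. Of the 1329 lower genes it lay between them for 883, was at or below both clones for 304 and was at or above both for 142.

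**Figure D1:**
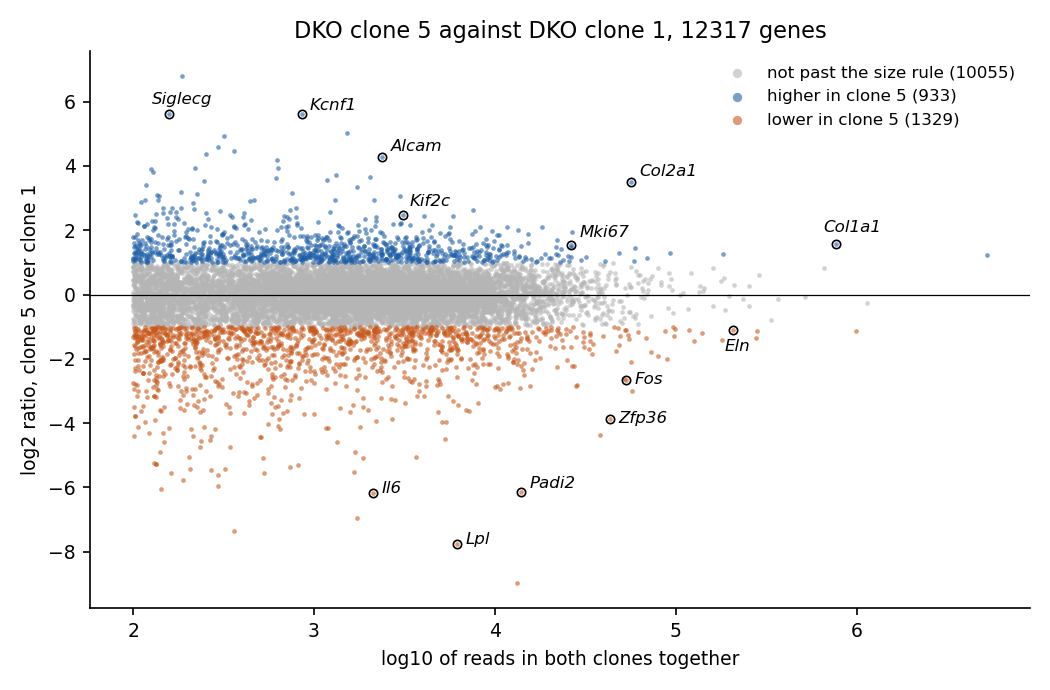
Each point is 1 of 12317 genes, with the log10 of its reads in both clones together on the x axis and its log2 ratio of clone 5 over clone 1 on the y axis. Blue points (933) are higher and orange points (1329) lower in clone 5 by the size rule, and the largest ratios, such as Lpl and Il6, lie on the lower side.

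The cell division genes were higher in clone 5. Of 43 genes of mitosis, all examined, 41 were higher in clone 5 and 0 lower, with a median log2 ratio of 1.497, against -0.02 for all genes. Over all genes examined 7.57% were higher. Mki67, a protein of dividing nuclei, stood at 424 CPM in WT, 277 in PRDX1MT, 232 in clone 1 and 668 in clone 5, a 2.89-fold difference between the clones (interval 2.81 to 2.96). Kif2c, a kinesin that takes microtubules apart at the kinetochore, differed most within the list, at 45.0, 25.9, 16.6 and 93.2 CPM (5.61-fold, 5.12 to 6.14). In both genes clone 1 was the lowest of the 4 libraries and clone 5 the highest. Cdc20, which activates the anaphase-promoting complex, was 3.96-fold higher in clone 5 (3.76 to 4.17), Lmnb1, a lamin of the nuclear envelope, 4.28-fold (4.07 to 4.51) and Cdca8, of the chromosomal passenger complex, 4.598-fold (4.22 to 5.02). Foxm1, a transcription factor of mitotic genes, stood at 55.0 CPM in clone 1 and 204 in clone 5. The other 2 members, Spc25 and Nusap1, had log2 ratios of 0.39 and 0.76. Against WT the list's median was -0.69 in clone 1 and 0.85 in clone 5.

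DNA replication genes leaned the same way, with 28 of 45 higher in clone 5, 0 lower and every one of the 45 ratios above 0 (median log2 ratio 1.12). Uhrf1, which recruits Dnmt1 to newly replicated DNA, stood at 98.0 CPM in WT, 142 in PRDX1MT, 91.7 in clone 1 and 372 in clone 5 (4.06-fold, 3.90 to 4.22). Mcm5, a subunit of the replicative helicase, stood at 79.4, 102, 73.0 and 222 CPM, and Mcm6, of the same helicase, at 93.4, 96.0, 75.6 and 193 CPM. Clone 5 was the highest library for all 3 genes, while clone 1 was close to WT. Pold1, the catalytic subunit of DNA polymerase delta, differed 3.43-fold (3.18 to 3.71). Pcna, the sliding clamp of the same polymerase, was the member with the smallest difference, at 120 CPM in clone 1 and 129 in clone 5. Against WT the list's median was 0.03 in clone 1 and 1.07 in clone 5. Chaf1a, a histone chaperone subunit 3.45-fold higher in clone 5, is uncertain because 52.5% of its exon length overlaps other genes.

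Replication histone genes, whose transcripts lack a poly(A) tail and were kept by this library type, were higher in clone 5 at 39 of 47 examined, with 0 lower and a median log2 ratio of 1.44. Another 5 of the 52 listed were under the read minimum. Hist1h4k, an H4 gene, stood at 66.1 CPM in WT, 47.1 in PRDX1MT, 30.2 in clone 1 and 121 in clone 5 (3.999-fold, 3.73 to 4.29). Hist1h1a, a linker histone gene, stood at 40.2, 13.5, 0.710 and 3.74 CPM, so that it was lower than WT in both clones although clone 5 was 5.27-fold above clone 1 (3.38 to 8.52). Histone genes are near-identical copies, and no source used here says how shared reads were assigned, so single members are uncertain. Against WT the list's median was -0.76 in clone 1 and 0.63 in clone 5.

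Genes that control entry into the cycle differed less evenly. Of 25 G1 regulators examined, 7 were higher in clone 5 (28.0%) and 0 lower, with a median log2 ratio of 0.66. Among all genes examined 7.57% were higher and 10.8% lower. Ccne2, a cyclin of the G1 to S transition, was 3.30-fold higher in clone 5 (2.96 to 3.69), and Ccnd3, a D-type cyclin, 2.62-fold (2.51 to 2.75). Cdkn2c, a CDK inhibitor, was 2.64-fold higher too (2.48 to 2.81). Ccnd1, another D-type cyclin, was not past the rule at 319 CPM in clone 1 and 450 in clone 5, and 23.4% of its exon length overlaps other genes. Cdkn1a, the inhibitor p21, stood at 126 CPM in WT, 299 in PRDX1MT, 389 in clone 1 and 278 in clone 5, again not past the rule. Of 27 examined p53 target genes 2 were higher (7.41%, near the share of all genes) and 5 lower (18.5%), with a median of -0.20.

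The promoters of these lists are shown because most of their members differed in the same direction and many share short motifs. Those printed were taken from members past the size rule that hold the motif upstream. Each therefore shows it by choice and says nothing of its list's share. Sequences are RefSeq's, build GRCm38.p6, read on the gene's strand from a window of 250 bases before to 50 bases after the start. Capitals mark E2F motifs (TTTCGCGC, TTTGGCGC or TTTCCCGC, either strand, overlapping matches joined) in Mcm5 and Mcm6. They mark the cell cycle homology region (CHR, TTTGAA, either strand) in Mki67 and Top2a, a mitotic topoisomerase, and the CCAAT box (CCAAT, either strand) in the histone genes Hist1h1e and Hist1h4d.
Mcm5 (chr8:75109270-75109392, plus strand): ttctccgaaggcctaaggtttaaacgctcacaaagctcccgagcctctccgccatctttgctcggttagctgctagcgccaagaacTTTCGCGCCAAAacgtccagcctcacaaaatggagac
Mcm6 (chr1:128359720-128359842, minus strand): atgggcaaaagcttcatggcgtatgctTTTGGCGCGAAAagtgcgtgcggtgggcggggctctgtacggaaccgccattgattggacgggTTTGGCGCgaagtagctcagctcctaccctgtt
Mki67 (chr7:135716447-135716567, minus strand): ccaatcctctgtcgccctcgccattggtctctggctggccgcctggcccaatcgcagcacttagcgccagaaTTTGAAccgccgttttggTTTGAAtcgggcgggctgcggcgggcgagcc
Top2a (chr11:99024190-99024302, minus strand): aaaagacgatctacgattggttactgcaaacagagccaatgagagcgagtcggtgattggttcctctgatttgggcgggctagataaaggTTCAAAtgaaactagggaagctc
Hist1h1e (chr13:23622581-23622700, minus strand): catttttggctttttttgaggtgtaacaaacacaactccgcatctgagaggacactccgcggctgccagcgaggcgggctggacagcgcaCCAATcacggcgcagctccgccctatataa
Hist1h4d (chr13:23581438-23581557, plus strand): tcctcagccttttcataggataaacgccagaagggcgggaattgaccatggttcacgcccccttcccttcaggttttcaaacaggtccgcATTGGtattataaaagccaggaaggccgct

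Among protein-coding genes examined, 8831 of 10972 had a promoter in the table. An E2F motif was in 12 of 37 DNA replication promoters (32.4%), against 3.99% of the 8831. The CHR was in 24 of 35 mitosis promoters (68.6%), against 11.8%. The CCAAT box was in 37 of 43 replication histone promoters (86.0%), against 39.8%, and also in 74.3% of the mitosis promoters. A match describes letters in the window and is not a shown binding site. These shares cover all examined list members with a promoter, whether or not they differed between the clones. They describe the lists, and a tie of the motifs to the clone difference was not tested.

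Most genes for ribosomes and one-carbon metabolism did not pass the size rule, and those that did were higher in clone 5, where 7.57% of all genes examined were higher. Of 30 genes on a list of ribosome biogenesis genes and Myc targets, 6 were higher, 0 lower and 24 not past the rule (median log2 ratio 0.71). Dkc1, of the small RNA-guided pseudouridylation complex, differed 2.79-fold (2.52 to 3.10), and Odc1, the first enzyme of polyamine synthesis, 2.25-fold (2.17 to 2.33). Of 60 ribosomal protein genes, 7 were higher (11.7%, near the share of all genes), 0 lower and 53 not past the rule, with 59 of 60 ratios above 0 (median 0.56). Their summed level was 23220 CPM in WT, 21700 in PRDX1MT, 11480 in clone 1 and 18320 in clone 5, so clone 1 was the low library. Myc itself went the other way, at 126 CPM in clone 1 and 71.6 in clone 5, a log2 ratio of -0.81 that was not past the size rule. Genes of serine and one-carbon metabolism were higher at 6 of 22 (27.3%) and lower at 0 (median 0.58). Psat1, an enzyme of serine synthesis, stood at 262 CPM in WT, 179 in PRDX1MT, 78.5 in clone 1 and 284 in clone 5, and Mthfd1l, of mitochondrial folate metabolism, was 3.72-fold higher in clone 5 (3.50 to 3.95).

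**Figure D2:**
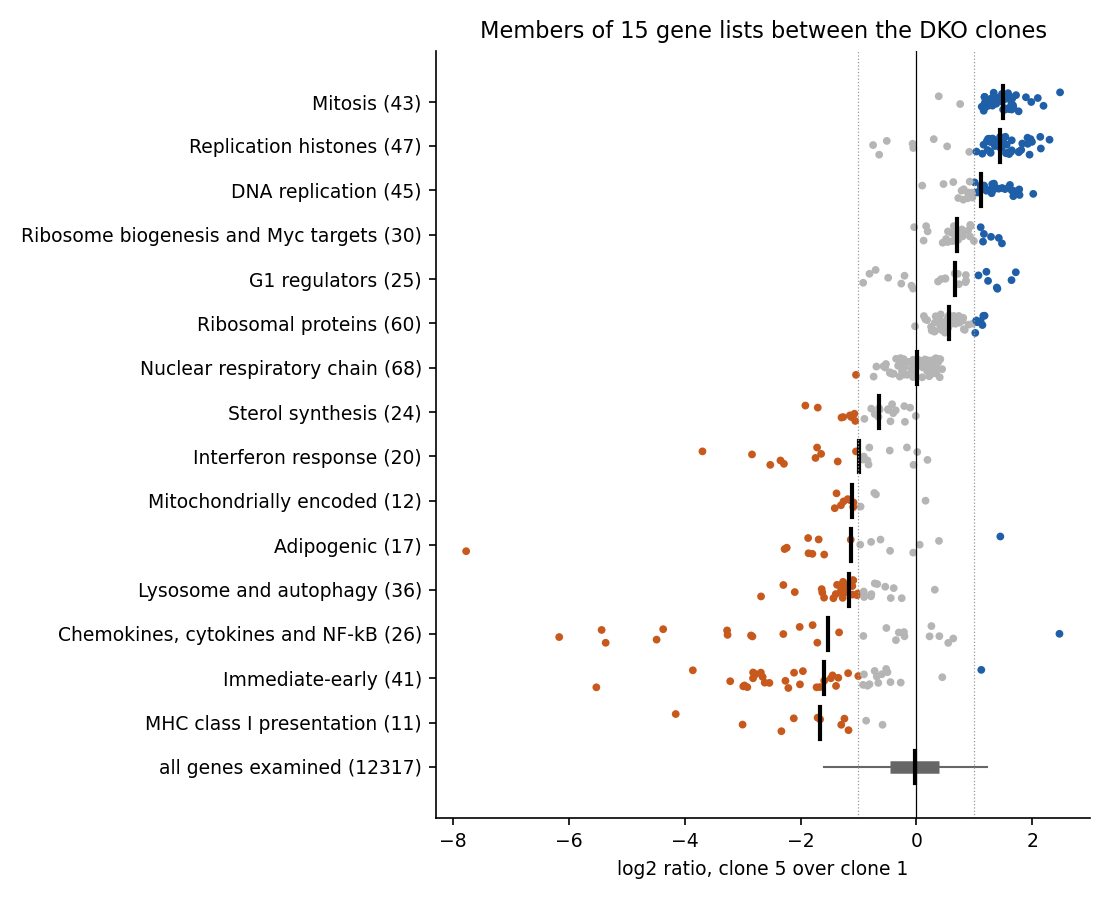
Each point is an examined member of a gene list, placed by its log2 ratio of clone 5 over clone 1, with blue for higher and orange for lower by the size rule, grey for neither and a black bar at the list's median. The bottom row gives the median, the middle 50% and the middle 90% of all 12317 genes, and the mitosis (1.497) and MHC class I (-1.66) medians lie at opposite ends.

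Immediate-early genes, which serum and stress switch on within minutes without new protein, were lower in clone 5. Of 41 examined, 27 were lower and 1 higher, with a median log2 ratio of -1.59, where 10.8% of all genes examined were lower. Fos, a subunit of the AP-1 transcription factor, stood at 348 CPM in WT, 713 in PRDX1MT, 1345 in clone 1 and 214 in clone 5 (6.30-fold, 6.13 to 6.47). Zfp36, which speeds the decay of cytokine mRNAs, stood at 146, 368, 1173 and 80.7 CPM (14.5-fold, 13.9 to 15.2). Atf3, a stress-induced repressor, stood at 15.96, 57.6, 46.8 and 0.954 CPM (49.0-fold, 33.4 to 75.3). For Fos and Zfp36 clone 1 was the highest library and clone 5 the lowest, and for Atf3 PRDX1MT was the highest. Egr1, a zinc finger factor, stood at 504, 1131, 2122 and 527 CPM, so that clone 5 was near WT. Jun, the partner of Fos in AP-1, differed little, at 288 CPM in clone 1 and 211 in clone 5. Dusp4, a MAP kinase phosphatase, was the 1 member higher in clone 5, at 24.9 CPM in clone 1 and 54.2 in clone 5.

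The summed level of the immediate-early list was 4765 CPM in WT, 12130 in PRDX1MT, 18090 in clone 1 and 5705 in clone 5. Against WT the median was 1.88 in clone 1, 0.34 in clone 5 and 1.43 in PRDX1MT, so clone 1 and PRDX1MT lay farther above WT than clone 5 did. Several genes of the circadian clock list are also induced by serum or stress. That list shares Per1, which was lower in clone 5, with the immediate-early list, so the counts are not independent. Of 16 examined, 7 were lower in clone 5 and 0 higher, among them Bhlhe40 at 716 CPM in clone 1 and 101 in clone 5 and Nfil3 at 127 and 18.4 CPM, both transcriptional repressors. Receptor tyrosine kinase targets of the ETS family were on the other side. Etv5, Etv4 and Etv1, induced by FGF and ERK signalling, were 5.34-fold (4.80 to 5.95), 4.56-fold (3.601 to 5.83) and 3.06-fold (2.40 to 3.91) higher in clone 5. In that list of 30 examined genes 5 were higher (16.7%) and 7 lower (23.3%), where 7.57% and 10.8% of all genes examined were. Fgfr2, an FGF receptor, stood at 94.3 CPM in WT, 72.0 in PRDX1MT, 43.6 in clone 1 and 3.96 in clone 5.

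**Figure D3:**
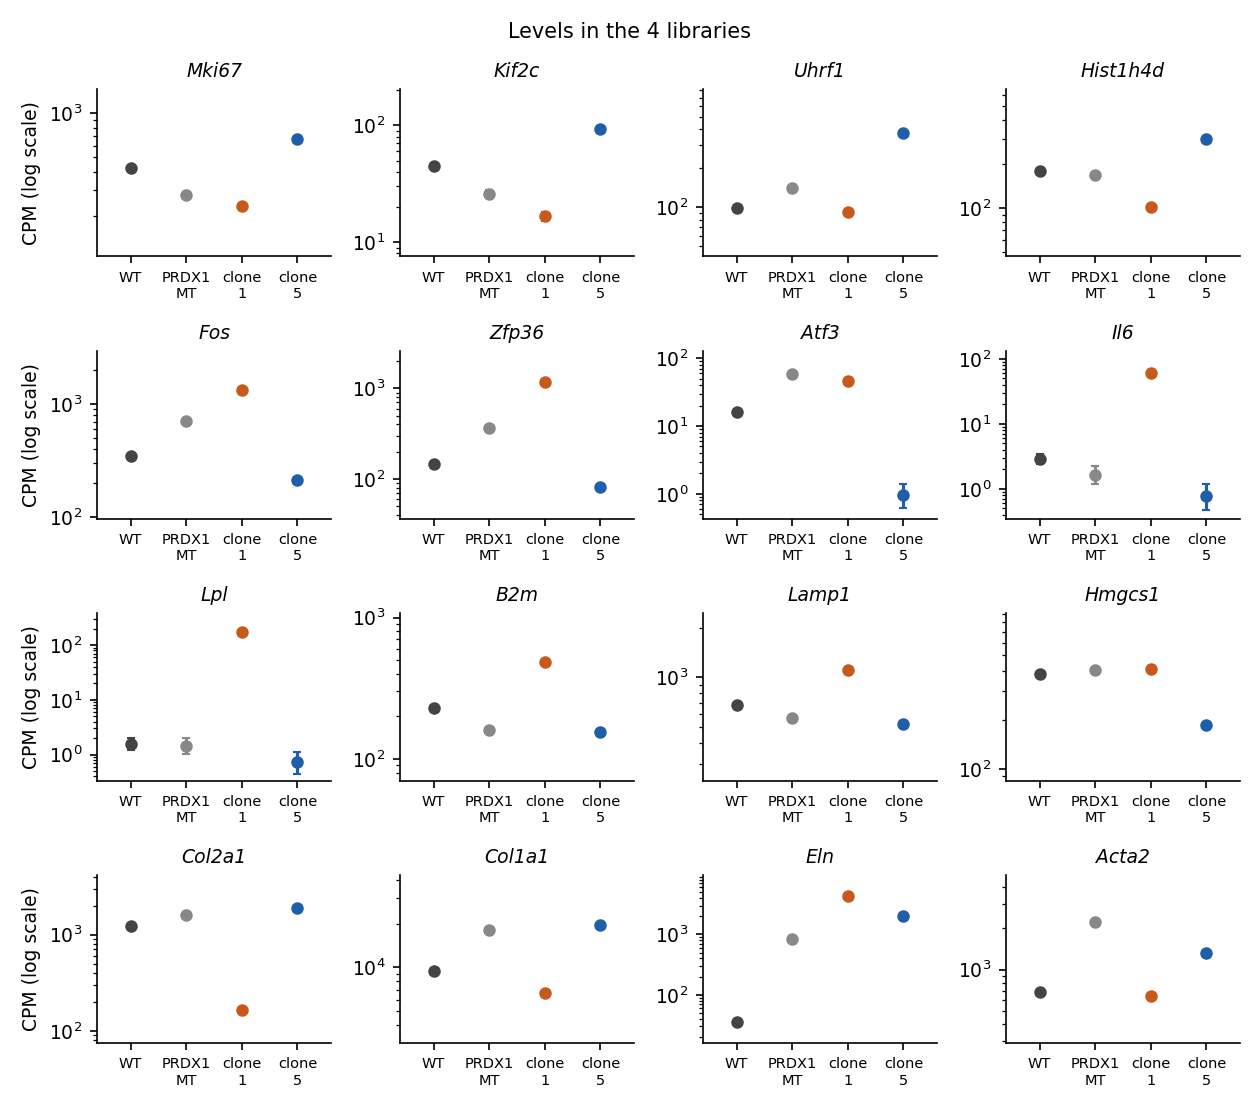
Each panel plots the CPM of 1 gene (log axis, with a range set per panel) in the WT, PRDX1MT, clone 1 and clone 5 libraries, and bars are exact 95% Poisson intervals, often smaller than the point. Clone 5 is the highest library for Mki67, Kif2c, Uhrf1 and Hist1h4d and the lowest for Fos, Zfp36, Atf3, Il6 and Lpl.

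Among inflammatory and antigen presentation genes, most of those past the size rule were lower in clone 5. Of 26 chemokine, cytokine and NF-kB genes examined, 14 were lower (53.8%) and 1 was higher (median log2 ratio -1.52), where 10.8% of all genes examined were lower. Il6, an inflammatory cytokine, held 120 reads in WT, 42 in PRDX1MT, 2106 in clone 1 and 21 in clone 5, a 77.6-fold difference between the clones (50.7 to 126). Cxcl1 and Cxcl5, chemokines that attract neutrophils, were 22.6-fold (19.5 to 26.4) and 46.9-fold (26.7 to 91.2) lower in clone 5. For Il6, Cxcl1 and Cxcl5 clone 1 stood above the other 3 libraries. Il1rn, the antagonist of the interleukin-1 receptor, stood at 568 CPM in WT, 95.1 in PRDX1MT, 1048 in clone 1 and 50.5 in clone 5. Cxcl12, a stromal chemokine, was high in both clones, with 2847 CPM in clone 1 and 2230 in clone 5 against 802 in WT. Tslp, an epithelial-type cytokine, was the 1 member higher in clone 5, with 18 reads in clone 1 and 85 in clone 5.

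Of 11 genes of MHC class I presentation examined, 9 were lower in clone 5 and all 11 ratios were below 0 (median -1.66). Among all genes examined 10.8% were lower. B2m, the light chain of the class I molecule, stood at 228 CPM in WT, 161 in PRDX1MT, 488 in clone 1 and 154 in clone 5. Tap2, a subunit of the peptide transporter, stood at 12.1, 4.06, 31.8 and 1.73 CPM (18.4-fold, 13.8 to 25.2). H2-D1, a class I heavy chain, was 5.08-fold lower in clone 5 (4.26 to 6.09), and reads of the H2 genes may be shared among near-identical copies. Nlrc5, the transactivator of class I genes, held 98 reads in clone 1 and 8 in clone 5 (9.48-fold, 4.63 to 22.6). Clone 5 was below every other library for B2m, Tap2, H2-D1 and Nlrc5. Interferon response genes were lower at 10 of 20 and higher at 0 (median -0.98), with 21 listed genes under the read minimum. Irf1, a factor induced by interferon gamma, was 7.19-fold lower in clone 5 (6.33 to 8.20), and Parp14, an ADP-ribosyltransferase, 14.1-fold (8.76 to 24.0). Against WT, the class I median was 0.23 in clone 1 and -1.11 in clone 5, so the larger departure from WT was in clone 5.

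Lysosome and autophagy genes were lower in clone 5 at 24 of 36 examined (66.7%) and higher at 0, with 35 of 36 ratios below 0 (median -1.16). Among all genes examined 10.8% were lower. Neu1, a sialidase, stood at 30.0 CPM in WT, 37.8 in PRDX1MT, 86.3 in clone 1 and 13.4 in clone 5 (6.44-fold, 5.78 to 7.20). Lamp2, a protein of the lysosomal membrane, stood at 385, 223, 597 and 192 CPM (3.11-fold, 3.01 to 3.20). Sqstm1, an autophagy receptor, stood at 703 CPM in clone 1 and 228 in clone 5, and the protease gene Ctsd at 713 and 309 CPM. The summed level of the list was 7143 CPM in WT, 6218 in PRDX1MT, 12300 in clone 1 and 5559 in clone 5, so clone 1 was the high library. The transcription factors of lysosomal genes were not past the rule, with Tfeb at 29.3 CPM in clone 1 and 36.6 in clone 5 and Tfe3 at 72.4 and 55.2. The promoter of Lamp1, which stood at 1110 CPM in clone 1 and 520 in clone 5, is shown for its 4 copies of the E-box CACGTG in capitals. That palindrome was in 10.5% of the 8831 promoters, and no share is given for the list because too few of its members had a promoter in the table.
Lamp1 (chr8:13159056-13159160, plus strand): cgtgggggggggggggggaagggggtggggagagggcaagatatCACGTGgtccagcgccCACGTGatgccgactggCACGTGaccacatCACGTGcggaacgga

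Most lipid metabolism genes did not pass the size rule, and those that did on these 3 lists were lower in clone 5, where 10.8% of all genes examined were lower. Of 24 sterol synthesis genes examined, 8 were lower (33.3%), 0 higher and 16 not past the rule, with all 24 ratios below 0 (median -0.65). Insig1, which holds back the processing of sterol regulatory factors, stood at 227 CPM in WT, 275 in PRDX1MT, 344 in clone 1 and 106 in clone 5 (3.26-fold, 3.13 to 3.39). Hmgcs1, an early enzyme of the pathway, stood at 383, 406, 413 and 186 CPM. For both, clone 5 was the lowest of the 4 libraries. Of 22 fatty acid synthesis genes, 6 were lower (27.3%) and 0 higher (median -0.58), among them Scd2, a desaturase, at 2106 CPM in clone 1 and 859 in clone 5. Of 23 fatty acid oxidation genes, 5 were lower (21.7%) and 0 higher, with 7 ratios above 0 (median -0.40). Ppargc1a, a coactivator of mitochondrial genes, held 72 reads in WT, 53 in PRDX1MT, 486 in clone 1 and 16 in clone 5 (23.5-fold, 14.3 to 41.5).

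Respiratory genes differed by genome. Of 12 mitochondrially encoded genes examined, 8 were lower in clone 5 and 0 higher (median -1.12), while of 68 nuclear genes for the respiratory chain 1 was lower and 0 were higher (median 0.01). Among all genes examined 10.8% were lower. mt-Co1, a subunit of cytochrome c oxidase, stood at 4338 CPM in WT, 1547 in PRDX1MT, 5948 in clone 1 and 2692 in clone 5, and mt-Nd5, of complex I, at 1817, 937, 2952 and 1298 CPM. PRDX1MT was thus lower still than clone 5 for both. The ribosomal RNAs mt-Rnr1 and mt-Rnr2 were 2.602-fold and 2.66-fold lower in clone 5. Ribosomal RNA was removed from these libraries, and how far the removal differed between the clones was not tested. Mitochondrial reads can also be shared with nuclear copies of mitochondrial DNA.

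Most glycolysis and hypoxia genes did not pass the size rule, and those that did went both ways. Of 36 examined, 2 were higher in clone 5 (5.56%), 7 lower (19.4%) and 27 not past the rule, with a median of -0.14. Over all genes examined 7.57% were higher and 10.8% lower. Hk2, a hexokinase, stood at 25.3 CPM in WT, 80.2 in PRDX1MT, 300 in clone 1 and 44.9 in clone 5 (6.68-fold, 6.30 to 7.10), and Pfkfb3, which raises an activator of glycolysis, was 6.12-fold lower in clone 5 (5.26 to 7.15). Eno1, an enolase, was higher, at 476 CPM in clone 1 and 1177 in clone 5, and its isozyme gene Eno2 was lower, at 19.98 and 4.44 CPM. Of 36 antioxidant genes 2 were higher and 10 lower (median -0.41). Hmox1, heme oxygenase, stood at 85.6 CPM in WT, 105 in PRDX1MT, 360 in clone 1 and 63.9 in clone 5, and Gsta4, a glutathione transferase, at 48.3, 35.3, 145 and 16.2 CPM. ER chaperones were higher at 1 and lower at 2 of 23, ATF4 response genes higher at 3 and lower at 7 of 27, and heat shock genes higher at 0 and lower at 1 of 18. The ER chaperone and heat shock shares were under those of all genes.

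**Figure D4:**
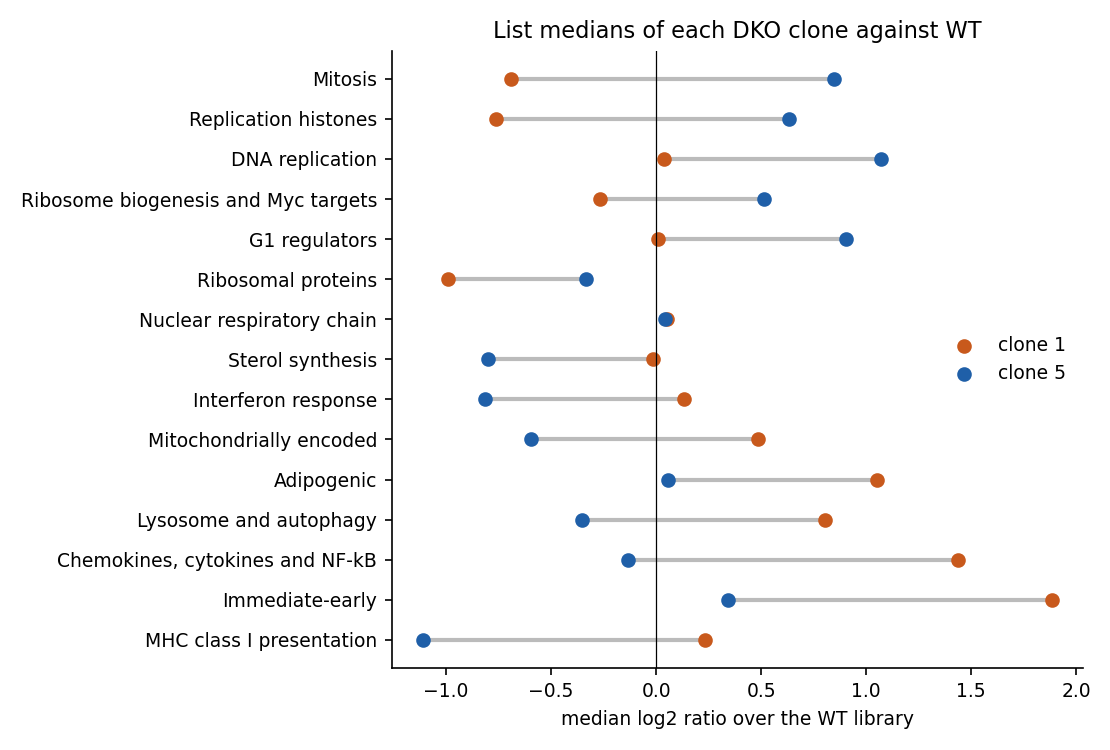
For each of 15 gene lists, the points give the median log2 ratio of clone 1 (orange) and of clone 5 (blue) over the WT library, joined by a line. Mitosis (-0.69 and 0.85) and replication histones (-0.76 and 0.63) lie on opposite sides of WT, while clone 1 is the one farther from WT for immediate-early genes (1.88 and 0.34).

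Markers of the mesenchymal lineage were read in both clones. Of 27 stromal markers 22 had enough reads. Of these, 5 were higher in clone 5 (22.7%) and 0 lower, where 7.57% of all genes examined were higher. Vim, an intermediate filament gene, stood at 6098 CPM in clone 1 and 5531 in clone 5. Col1a1, the main chain of type I collagen, stood at 9512 CPM in WT, 18060 in PRDX1MT, 6627 in clone 1 and 19700 in clone 5 (2.97-fold, 2.96 to 2.99). Alcam, a cell adhesion molecule, stood at 77.5, 48.5, 4.18 and 82.0 CPM (19.6-fold, 16.6 to 23.4), so that it was clone 1 that departed from the others. Over all 22 collagen genes examined, 4 were higher (18.2%) and 3 lower (13.6%), with a median of 0.08, where 10.8% of all genes examined were lower.

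Cartilage genes went both ways. Of 16 examined, 3 were higher in clone 5 (18.8%) and 7 lower (43.8%), with a median of -0.77. Among all genes examined 7.57% were higher and 10.8% lower. Col2a1, the collagen of cartilage, stood at 1225 CPM in WT, 1611 in PRDX1MT, 165 in clone 1 and 1873 in clone 5, an 11.3-fold difference (11.04 to 11.65) with clone 1 as the low library. Col9a1, a chain of the type IX collagen that decorates type II fibrils, stood at 65.3, 24.5, 18.9 and 1.47 CPM (12.9-fold, 9.38 to 18.2), with clone 5 as the low library. Matn3 and Matn4, matrilins of the cartilage matrix, were also lower in clone 5, at 15.3-fold (10.6 to 22.7) and 12.9-fold (10.4 to 16.1). Sox9, the regulator of cartilage genes, was not past the rule, at 475 CPM in clone 1 and 650 in clone 5.

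Fat genes were lower in clone 5 at 9 of 17 examined (52.9%) and higher at 1 (median -1.13), where 10.8% of all genes examined were lower. Lpl, the lipase that frees fatty acids from lipoproteins, held 66 reads in WT, 37 in PRDX1MT, 6138 in clone 1 and 20 in clone 5. In CPM these are 1.59, 1.46, 174 and 0.734, and the 238-fold difference between the clones (154 to 389) was the largest finite fold among the protein-coding genes that the naming rule chose. Plin4, a coat protein of lipid droplets, stood at 126 CPM in WT, 106 in PRDX1MT, 655 in clone 1 and 139 in clone 5 (4.72-fold, 4.56 to 4.89). For both genes clone 1 was the library apart. Pparg, the master regulator of fat cells, differed little, at 50.7 CPM in clone 1 and 37.0 in clone 5. Fabp5, a fatty acid carrier, was the 1 member higher in clone 5 (2.74-fold, 2.45 to 3.08).

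Bone genes were higher at 2 and lower at 3 of 12 examined. Vdr, the vitamin D receptor, stood at 18.8 CPM in clone 1 and 87.4 in clone 5 against 49.6 in WT, and Msx1, a homeobox gene, held 447 reads in WT, 112 in clone 1 and 4 in clone 5. Runx2, the bone regulator, stood at 61.9 and 50.7 CPM in the clones. Of 8 muscle genes examined 3 were higher (37.5%) and 1 lower (12.5%, near the share of all genes), and Myod1 had 0 reads in all 4 libraries. Smooth muscle genes were higher at 4 and lower at 1 of 21. Acta2, smooth muscle actin, stood at 683 CPM in WT, 2203 in PRDX1MT, 646 in clone 1 and 1319 in clone 5, and its 2.04-fold difference between the clones (2.01 to 2.08) was just past the rule. With total counts as the scale its log2 ratio was 0.99, under the rule. Tpm2, a tropomyosin, was 4.61-fold higher in clone 5 (4.21 to 5.06). None of the 8 Hox genes examined passed the rule in either direction, where 18.4% of all genes examined did.

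Signalling and matrix lists held single large differences. Inhba, a subunit of activin, stood at 21.1 CPM in WT, 64.3 in PRDX1MT, 5.51 in clone 1 and 56.5 in clone 5, while the ligand genes Tgfb1 and Tgfb2 were 5.29-fold (4.44 to 6.34) and 3.93-fold (3.68 to 4.20) lower in clone 5. Of 26 TGF-beta pathway genes 3 were higher and 9 lower. Sfrp2, a secreted Wnt antagonist, was 15.8-fold lower in clone 5 (13.9 to 18.0), and of 19 Wnt genes 1 was higher and 8 were lower. Igf1, a growth factor, stood at 108, 16.8, 155 and 25.9 CPM in WT, PRDX1MT, clone 1 and clone 5, and Igfbp7, which binds such factors, was 2.93-fold higher in clone 5 (2.81 to 3.06). Eln, elastin, was far above the 35.3 CPM of WT in all 3 edited lines, at 834 in PRDX1MT, 4330 in clone 1 and 2027 in clone 5. The 39 elastic fibre and matrix glycoprotein genes were higher at 5 and lower at 9, and the 26 matrix proteases and inhibitors higher at 4 and lower at 6. Of 14 Notch genes 1 was higher and 4 were lower, of 21 BMP genes 1 and 3, and of 21 YAP and TEAD targets 3 and 2. Over all genes examined 7.57% were higher and 10.8% lower. Shares were 7.14% and 28.6% for Notch, 4.76% and 14.3% for BMP and 14.3% and 9.52% for YAP and TEAD targets. The BMP shares and the lower share of YAP and TEAD targets were near those of all genes.

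Genes tied to chromatin and methylation passed the size rule in both directions, where 18.4% of all genes examined passed it in either. Of 21 genes of the DNA methylation machinery, 4 were higher in clone 5 and 3 lower (median -0.23). Dnmt1, the maintenance methyltransferase, stood at 147 CPM in WT, 200 in PRDX1MT, 113 in clone 1 and 278 in clone 5 (2.45-fold, 2.36 to 2.55), and it is named with Uhrf1 above and Hells, a chromatin remodeller, among the higher genes. Tet2, which oxidises methylcytosine, was 2.74-fold lower in clone 5 (2.50 to 3.01). Of 36 Polycomb and H3K9 genes 4 were higher and 2 lower. Imprinted genes were higher at 3 and lower at 5 of 23. Peg10 and Sgce, neighbours of 1 imprinted domain, held 2352 and 1362 reads in WT, 707 and 869 in PRDX1MT, 8 and 91 in clone 1 and 117 and 356 in clone 5. Both were thus below WT in both clones, and clone 1 was the lower. Of 48 germline genes 46 were under the read minimum, and neither of the 2 examined passed the rule.

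The largest ratios of protein-coding genes outside the lists were mostly genes nearly absent from 1 clone. Scrn1, which encodes secernin, held 795 reads in WT, 947 in PRDX1MT, 1723 in clone 1 and 9 in clone 5 (148-fold, 77.9 to 325). Padi2, a peptidylarginine deiminase, held 413, 76, 13769 and 150 reads (71.1-fold, 60.5 to 84.0). Scrn1 was thus nearly lost in clone 5 alone, and Padi2 was high in clone 1 alone. Pdzk1ip1, a small membrane protein, held 142 reads in clone 1 and 0 in clone 5. With the 0 set to a floor of 3 counts it was 36.6-fold lower, and the interval starts at 29.4-fold. Kcnf1 and Kcnj2, potassium channel genes, held 20 and 56 reads in clone 1 and 834 and 1471 in clone 5, differences of 53.9-fold (34.7 to 88.7) and 33.9-fold (26.0 to 45.1). Siglecg, a sialic acid-binding receptor, held 2 reads in clone 1 and 156 in clone 5, against 5 in WT. In all, 17 of the lower genes had at most 3 reads in clone 5, and 2 of the higher genes had at most 3 reads in clone 1.

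Markers of other cell types were summed per list, and their part in the differences was not tested. The summed level of 20 immune markers was 11.1 CPM in WT, 14.7 in PRDX1MT, 23.3 in clone 1 and 9.76 in clone 5, and Ptprc, the marker of all white blood cells, had 0 reads in both clones. Only 4 immune markers were examined, of which Lyz2 and Cd14 were lower in clone 5 and 0 were higher. The 18 epithelial markers summed to 2.53 CPM in clone 1 and 5.25 in clone 5, with Epcam at 0 in all 4 libraries. The 15 endothelial markers summed to 17.7 and 26.5 CPM, with Cdh5 at 0 in both clones. Flt1, a VEGF receptor on that list, held 1125 reads in WT, 737 in PRDX1MT, 13 in clone 1 and 280 in clone 5, and Vwf, von Willebrand factor, 40, 37, 336 and 63. Of 7 neural markers examined 4 were higher (57.1%) and 2 lower (28.6%). Stmn2, a tubulin-binding protein, was 7.74-fold higher in clone 5 (6.85 to 8.76). It held 487 reads in WT, 0 in PRDX1MT, 306 in clone 1 and 1833 in clone 5. Gfap and S100b, genes of glial cells, were 12.1-fold (6.91 to 23.1) and 5.39-fold (4.77 to 6.11) lower. The 20 neural markers summed to 196 CPM in WT, 268 in PRDX1MT, 178 in clone 1 and 320 in clone 5, with Nefl and Olig2 at 0 reads in all libraries. The 20 pluripotency markers summed to 399, 1256, 927 and 694 CPM, with Klf4, which fibroblasts also express, at 262, 813, 647 and 537 CPM and Zfp42 and Esrrb at 0 reads in all libraries. In bulk RNA a change in the share of cells and a change in RNA per cell cannot be told apart.

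Position along the chromosomes was examined for protein-coding genes, with a running median over 41 neighbours. Chromosome 4 stood apart, with a median log2 ratio of 0.38 over 693 genes, 75.6% of them above 0, and 111 higher and 38 lower in clone 5. All of its windows lay above the median of all protein-coding genes, and of the 258 windows at or above 0.5 in the genome 199 were on it. Against WT the chromosome's median was -0.13 in clone 1 and 0.29 in clone 5. Chromosome 16 had a median of 0.24 and chromosome 2 one of -0.23. The highest window (1.36) lay on chromosome 13 among the clustered histone genes, and the lowest (-1.30) on chromosome 18 among the clustered protocadherins. Named genes that lie on chromosome 4 include Kif2c, Cdca8, Cdc20, Tpm2, Eno1, Padi2 and Mmachc. Of these, Padi2 was lower in clone 5 and the others were higher. Whether their differences are part of the chromosome's difference was not tested. DNA copy number was not analysed here. Without chromosome 4 genes, 815 genes were higher and 1288 lower.

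**Figure D5:**
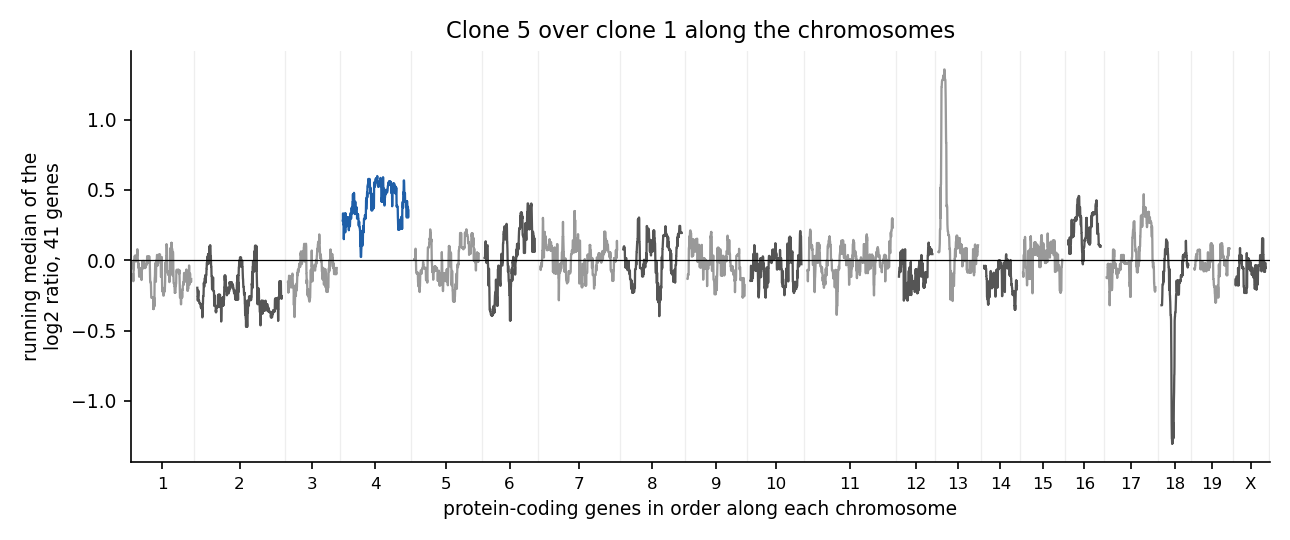
The line gives the running median of the log2 ratio of clone 5 over clone 1 across 41 protein-coding genes in their order along each chromosome, with chromosome 4 in blue. Chromosome 4 lies above 0 along its length, and single peaks mark the histone cluster on 13 (1.36) and the protocadherin cluster on 18 (-1.30).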

How the data were processed

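RNA-seq libraries of 4 C3H10T1/2 lines were made with a stranded total RNA kit after ribosomal RNA removal, per the labels' protocols. STAR 2.6.1d and the mm10 build were used, per the submitters' processing notes. No source used here gives the counting program, the annotation or the use of strand. The files deposited by the authors hold raw counts per gene, not normalized, for 54532 Ensembl identifiers. Of these, 54495 matched GENCODE M21 (GRCm38) and 37 did not. Genes that overlap others, or that have near-identical copies, are uncertain.

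Clone 5 was compared with clone 1 in R 4.3.3 and Python 3.11.15, with TMM factors over the 4 libraries from edgeR 4.0.16 and a prior count of 2 for log2 ratios. The size rule asked for at least 100 reads in both clones together, an absolute log2 ratio of at least 1 and a 95% conditional exact binomial interval that excluded 0. Levels have exact Poisson intervals. All intervals cover counting error only, and they say nothing of variation between cultures. PCR copies of a molecule were not told apart, so the intervals may be too narrow even for counting error. A count of 3 was worth 0.0852 CPM in clone 1 and 0.110 CPM in clone 5. The calculation was tested on simulated data.

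The 45 gene lists and 6 marker lists, the comparison and the rules were chosen with earlier results of these data known. Among protein-coding genes past the size rule, the 12 largest ratios and 8 largest CPM differences in each direction were named, with up to 4 members per list and direction with the largest ratios (or the most-read member where none passed), and 15 genes fixed by name. Other list members, all genes in the closing observations and the promoters shown were chosen after their values were seen. Promoters came from RefSeq (GRCm38.p6) and matched 9170 of 12317 genes. As this was under 80%, protein-coding genes (8831 of 10972, 80.5%) were taken as the background after the coverage was seen, and shares are void for lists under 80%, such as immediate-early (78.0%), lysosome (77.8%), sterol and interferon genes, and for all genes past the size rule. Alternatives were DESeq2 1.42.0 size factors, other scalings, gene sets, prior counts, read minimums and ratios and, chosen after seeing the data, chromosome 4 genes removed.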

Additional observations from a re-analysis of the deposited data

Results flagged for a closer look

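The mitosis list and the replication histone list lay on opposite sides of WT in the 2 clones, each by a median of at least 0.5, a threshold set after the values were seen. The median log2 ratio of clone 5 over clone 1 was 1.497 for mitosis genes, with clone 1 at -0.69 and clone 5 at 0.85 against WT. For replication histones it was 1.44, with -0.76 and 0.63 against WT. Both ratios against WT use the same WT library, and with 1 library per clone the difference was not tested.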

How the results depend on the processing

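No paired analysis was possible because each clone is 1 library and no test was run, and for the same reason no library could be left out. Counts of genes higher and lower in clone 5, 933 and 1329 as reported, moved with the thresholds: 1702 and 2077 with at least 20 reads, 617 and 823 with at least 500, 2247 and 2412 with no filter on low counts, 2075 and 2548 at 1.5-fold, and 122 and 404 at 4-fold. Higher genes made up 41.2% of calls as reported, 23.2% at 4-fold and 38.7% to 48.2% in the other settings run on all chromosomes. Under DESeq2 size factors the counts were 907 and 1353, under total counts 876 and 1390, and with structural RNA genes removed 866 and 1372. The median of endothelial markers, 0.98 over 3 genes, was -0.039 with at least 20 reads. Otherwise the list medians that changed sign were those of 6 lists with a median of at most 0.32 in size (YAP and TEAD targets, collagens, bone, muscle, Hox and nuclear respiratory genes), and no direction is drawn from them. Among named genes Cth (prior count of 10), Ltbp2, Ezh2 and Acta2 (other scalings) left the size rule, with Cth at a log2 ratio of 0.9756 and Ezh2 at 0.997 and 0.999, and Esrp2 passed it with at least 20 reads or no filter. Depth limits genes under the read minimum, 1 library per clone limits every comparison, and culture and harvest cannot be told apart from the clone.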

Other observations

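Clustered protocadherins, adhesion molecules of which a cell uses a subset, lie together on chromosome 18, and those past the size rule were lower in clone 5. Of 12 Pcdhb genes examined, 11 were lower in clone 5 and 0 higher (median log2 ratio -1.65), where 10.8% of all genes examined were lower. Pcdhb16 stood at 60.5 CPM in WT, 59.3 in PRDX1MT, 97.2 in clone 1 and 27.7 in clone 5. Of 19 Pcdhg genes 11 were lower, 0 higher and 8 not past the rule (median -1.10), and since they share exons their single values are uncertain. None of the 14 Pcdha genes had enough reads, and they summed to 4 reads in clone 1 and 1 in clone 5.

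The Nat8 family of acetyltransferase genes on chromosome 6 was high in clone 1. All 6 of its 8 genes with enough reads were lower in clone 5 (median log2 ratio -4.77), where 10.8% of all genes examined were lower. The family summed to 376 reads in WT, 66 in PRDX1MT, 3070 in clone 1 and 172 in clone 5. Its members are similar in sequence, so values of single members are uncertain. These families were chosen after their values were seen.

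Structural RNA rows differed widely. The ribosomal RNA row CT010467.1 held 159 reads in WT, 2261 in PRDX1MT, 13312 in clone 1 and 19 in clone 5, and Mir6236 held 10, 74, 359 and 0. Gm26917 stood at 53170 CPM in clone 1 and 124500 in clone 5. Malat1, a nuclear noncoding RNA, stood at 20720 and 9480 CPM, while Rn7sk, the RNA of the 7SK particle, was even at 3199 and 3121. Xist, the RNA of X inactivation, stood at 861 CPM in WT, 428 in PRDX1MT, 597 in clone 1 and 411 in clone 5.

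Higher than WT in clone 1 and lower than WT in clone 5, each by the size rule, were 42 genes, and 14 genes showed the reverse. The comparisons with WT examined 12935 genes for clone 1 and 12626 for clone 5, and they share the 1 WT library. Gm30563, a long noncoding RNA, held 0 reads in clone 1 and 186 in clone 5, 80.1-fold higher with the 0 set to a floor of 3 counts.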
